A study of Mus musculus with 4 samples.

Results

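Cell cycle genes were examined across the cells of mouse pancreatic islets. The set holds 44 genes, taken by name from the 38457 mouse genes in the deposited count tables, and every one of the 44 was found. Of these, 15 act at the start of the cycle and during DNA synthesis (G1/S members) and 29 act in the second gap phase and mitosis (G2/M members).

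Islet cells of mice labelled WT were compared with islet cells of mice labelled Sin3A mutant by inDrop, a droplet method that barcodes the RNA of single cells and reads the 3′ ends of transcripts after linear amplification. Each label has 2 libraries, described as biological replicates, and the library titles carry 2 numbers, each found under both labels. The libraries with the lower number form pair A and those with the higher number pair B. Every run of 4 values below gives pair A first and, within a pair, WT before mutant (WT A, mutant A, then WT B, mutant B). The Sin3a protein is the core on which a corepressor complex with histone deacetylases assembles. The sources used here do not give age, sex, strain, the allele, the cells in which it was changed, whether animals were pooled, or what the title numbers stand for. Since each label has 2 libraries, a p-value here speaks only of how far these libraries spread.

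A dividing cell first licenses its replication origins, copies its DNA, and then builds the spindle that separates the copies. The genes of the early steps are transcribed under E2F factors, which the retinoblastoma protein restrains, and those of the late steps under the MuvB complex with B-Myb and FoxM1. Beta cells divide often in the fetal and newborn mouse and rarely in the adult. Among the G1/S members, Mcm2, Mcm3, Mcm4, Mcm5, Mcm6 and Mcm7 encode the subunits of the replicative helicase, which Cdc6 and Cdt1 load and Gins2 helps to activate. Pcna encodes the sliding clamp of DNA polymerases, Rrm1 and Rrm2 the subunits of ribonucleotide reductase, Tyms thymidylate synthase, and Ccne1 and Ccne2 the E cyclins that start S phase. Tyms was placed with the G1/S members for its role in DNA synthesis.

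The G2/M members have 5 kinds of role. Ccna2, Ccnb1 and Ccnb2 encode cyclins, Cdk1 their kinase, and Foxm1 a transcription factor of mitotic genes. Plk1, Aurka, Aurkb, Nek2, Pbk, Bub1 and Bub1b encode kinases or checkpoint proteins of mitosis, and Ube2c and Cdc20 act with the ubiquitin ligase that ends it. Birc5 and Cdca8 belong with Aurkb to the chromosomal passenger complex, and Cenpa, Cenpe and Cenpf act at the centromere or kinetochore. Kif11, Kif20a, Kif23, Prc1, Tpx2, Nusap1 and Hmmr serve the spindle and the division of the cytoplasm. Top2a untangles DNA, Mki67 encodes the Ki-67 protein that coats mitotic chromosomes, and Cdca3 promotes entry into mitosis.

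The split into 2 groups was also visible in the start regions of the genes, where RefSeq windows of the build GRCm38.p6 (from 250 bases before to 50 after a start) could be matched for 23 G2/M and 12 G1/S members. The CHR element, read as TTTGAA or TTCGAA on either strand, lay in 19 of 24 G2/M windows (79.2%), in 2 of 13 G1/S windows (15.4%) and in 19.2% of all 32851 windows. CCAAT lay in 22 of the 24 G2/M windows, in 9 of the 13 G1/S windows and in 37.4% of all. Both together lay in 19 of the 24 G2/M windows and in 7.52% of all. An E2F element, read as TTTCGCGC, TTTGGCGC or TTTCCCGC on either strand, lay in 6 of the 13 G1/S windows, in 1 of the 24 G2/M windows (Cdk1) and in 1.84% of all. Matches describe letters only, and binding of a factor was not measured.

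The 6 stretches of 150 bases shown next were picked for holding these motifs, so they are examples and do not test the difference. They lie before the RefSeq starts of members that carry the motifs there and cover no annotated exon. Capitals mark CHR and CCAAT (or its reverse complement ATTGG) in the first 3, which are G2/M members, and E2F elements in the last 3, which are G1/S members. CCAAT and ATTGG were left unmarked in the last 3, although the stretches of Mcm6 and Mcm5 hold them.
Top2a, chr11:99024190-99024339, minus strand: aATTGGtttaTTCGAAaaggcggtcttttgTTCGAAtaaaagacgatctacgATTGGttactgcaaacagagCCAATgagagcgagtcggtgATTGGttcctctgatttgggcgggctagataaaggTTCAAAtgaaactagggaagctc
Mki67, chr7:135716380-135716529, minus strand: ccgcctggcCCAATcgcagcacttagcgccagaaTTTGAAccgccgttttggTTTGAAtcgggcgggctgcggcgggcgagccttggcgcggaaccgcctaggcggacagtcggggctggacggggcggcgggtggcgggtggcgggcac
Kif11, chr19:37376232-37376381, plus strand: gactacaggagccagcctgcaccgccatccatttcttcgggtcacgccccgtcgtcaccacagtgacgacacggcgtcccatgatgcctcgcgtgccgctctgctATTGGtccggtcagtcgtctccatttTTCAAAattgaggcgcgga
Mcm6, chr1:128359706-128359855, minus strand: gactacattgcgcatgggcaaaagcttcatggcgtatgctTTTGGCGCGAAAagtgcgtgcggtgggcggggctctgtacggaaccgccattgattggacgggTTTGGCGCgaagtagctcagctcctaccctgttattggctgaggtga
Mcm5, chr8:75109359-75109508, plus strand: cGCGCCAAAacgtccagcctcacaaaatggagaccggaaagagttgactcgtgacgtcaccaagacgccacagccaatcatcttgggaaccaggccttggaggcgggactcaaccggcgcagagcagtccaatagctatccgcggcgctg
Cdc6, chr11:98908001-98908150, plus strand: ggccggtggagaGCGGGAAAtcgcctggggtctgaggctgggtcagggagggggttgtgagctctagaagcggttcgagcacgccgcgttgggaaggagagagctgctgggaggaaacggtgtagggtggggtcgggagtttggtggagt
Top2a held 3 CHR and 4 CCAAT matches in its stretch, and Mki67 2 CHR matches and 1 CCAAT match. In Mcm6 the first capital run holds 2 overlapping matches, 1 on each strand. The stretch of Cdc6 lies inside the span that GENCODE M21 gives that gene, outside its exons, and the other 5 lie outside the span of their gene.

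The 4 libraries held 1302, 1323, 1878 and 2445 barcodes, from which 1207, 1144, 1793 and 2382 cells (6526 in all) were kept, with median counts per cell of 9997, 7605, 5306 and 4448.5. Pairs of libraries shared between 10 and 39 kept barcodes. Clusters were made without cell cycle genes and named from marker genes, which gave 2948 beta-like (insulin), 1071 alpha-like (glucagon), 504 delta-like (somatostatin), 349 endothelial-like, 810 mesenchymal-like and 318 ductal-like cells. Each of these classes had at least 4 detected markers of its own. Some clusters were still led by cell cycle genes, a beta-like one of 119 cells (92, 17, 3 and 7) by Rrm2 and Pbk. An alpha-like one of 57 cells (0, 0, 25 and 32) held Top2a and Ccnb1 next to Gcg. Beta-like cells lay mostly in clusters of a single library. Alpha-like cells split by pair, with 114, 102, 1 and 7 cells in 1 cluster and 32, 23, 410 and 325 in another. Mutant A held 14 ductal-like cells. Of the delta-like cells 191 were rich in insulin transcripts (80, 45, 1 and 65). The delta-like sums, numbers of members called against beta-like cells and shares of G2/M-positive cells are given without them too. Other delta-like values include them unless stated. Of the 67 mesenchymal-like cells of mutant A, 60 lay in the cluster led by Rgs5 and Notch3, which held 46, 73 and 134 mesenchymal-like cells of the other libraries.

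Sin3a itself was at 27.5, 54.1, 43.5 and 21.3 counts per 1000000 counts (CPM) over all cells. It was thus higher in the library labelled mutant within A and lower within B. Which part of the gene was changed is unknown here, so these 3′ counts do not check the labels, and every direction below is that of the labels.

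All 44 members had counts in every library. Over all cells the G2/M member with the most counts was Ube2c with 5529, followed by Top2a with 4480, Ccna2 with 4248 and Cenpa with 3446. Among the G1/S members these were Rrm1 with 3739, Pcna with 2816, Mcm6 with 2754 and Rrm2 with 2727. Foxm1, with 357 counts, and Cdc6, with 438, had the fewest of their groups. The exons of 14 members share bases with another gene, for 11 of them on the opposite strand only, so part of their counts could belong to the neighbour if strand was not used.

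Summed over their 29 genes, G2/M transcripts were lowest in delta-like cells, at 593, 457, 468 and 633 CPM. Beta-like cells held 1168, 1105, 1472 and 1374 CPM, and these values do not overlap those of the delta-like cells. In alpha-like cells the same sum was 818, 1498, 1227 and 1518 CPM, around the beta-like values. Mesenchymal-like cells held 1858, 936, 2308 and 2536 CPM and ductal-like cells 2087, 757, 1883 and 2006 CPM. In both classes mutant A fell below every beta-like library while the other 3 libraries lay above them all. Endothelial-like cells held 1651, 628, 1873 and 1010 CPM, with both mutant libraries below both WT libraries. A lower sum over a class can come from fewer dividing cells or from less of these RNAs per cell, which cannot be told apart in sums.

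The G1/S sum followed a different order of classes. It was highest in ductal-like cells, at 1260, 1576, 1366 and 1298 CPM, above every other class in every library. Mesenchymal-like cells followed with 981, 981, 932 and 1189 CPM, and endothelial-like cells with 792, 666, 975 and 926 CPM, and these classes overlap. Beta-like cells held 628, 559, 489 and 575 CPM and alpha-like cells 535, 684, 466 and 673 CPM, which overlap throughout. Delta-like cells were lowest again, at 284, 358, 457 and 283 CPM, all below the lowest beta-like value. The low G2/M sum of mutant A in ductal-like cells stood beside the highest G1/S sum of any library, both from 14 cells.

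**Figure D1:**
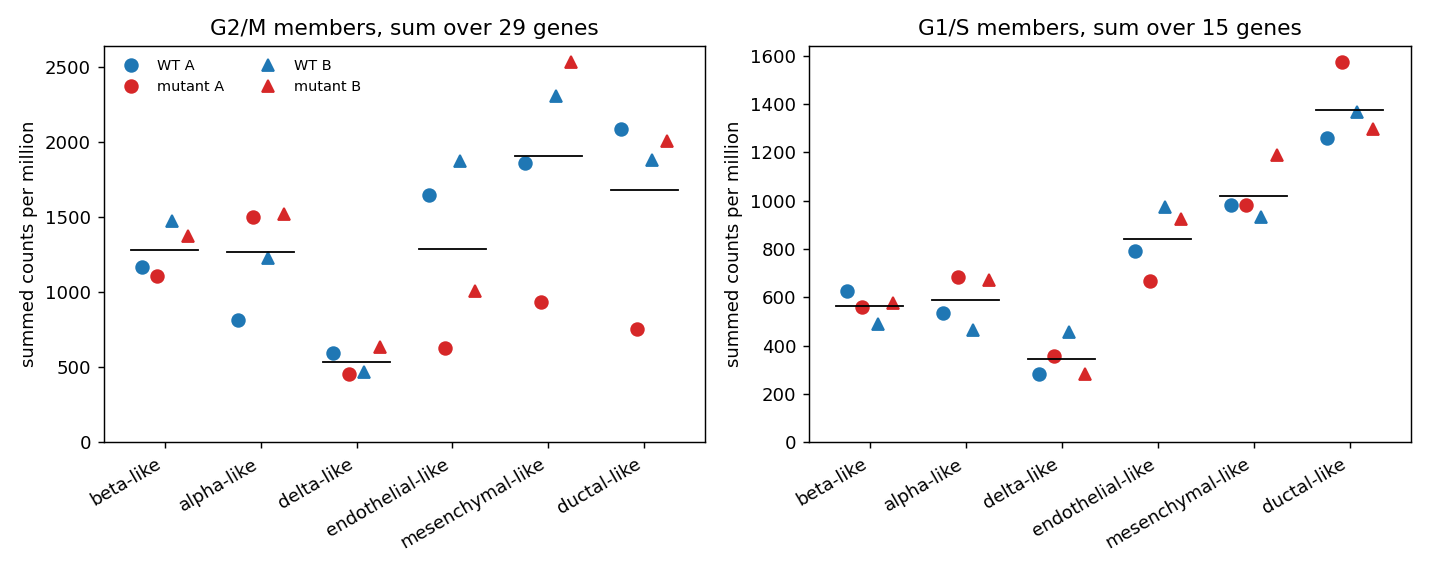
Summed CPM of the 29 G2/M members (left) and the 15 G1/S members (right) in each cell class, 1 point per library (circles A, triangles B, blue WT, red mutant), with the mean of the 4 libraries as a line. Delta-like cells are lowest in both panels, and mutant A lies far below the other libraries for G2/M members in mesenchymal-like and ductal-like cells.

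Single members repeated the order of the sums. By mean CPM over the libraries, delta-like cells were the lowest of the 6 classes for 28 of 29 G2/M and 11 of 15 G1/S members. Mesenchymal-like cells were the highest for 19 of 29 G2/M members, and ductal-like cells for 13 of 15 G1/S members. Mki67 stood at 63.8, 66.0, 57.0 and 44.3 CPM in beta-like cells, and at 26.9, 18.6, 13.5 and 9.08 CPM in delta-like cells. The 2 sets of values are apart, and alpha-like cells, at 46.2, 69.5, 43.0 and 38.7 CPM, overlap the beta-like ones. Ductal-like and mesenchymal-like cells held 69.7 ± 34.7 and 71.3 ± 8.51 CPM of Mki67 (SD, n = 4 libraries), where the ductal-like spread was the wider.

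Top2a was at 76.3, 90.8, 132 and 102 CPM in beta-like cells and at 31.8, 37.2, 36.0 and 67.7 CPM in delta-like cells. Mesenchymal-like cells held 107, 69.9, 203 and 241 CPM of it, with mutant A below every beta-like library. Ube2c, the conjugating enzyme of the ligase that ends mitosis, was at 146, 96.5, 105 and 162 CPM in beta-like and 93.7, 19.8, 18.0 and 52.8 CPM in delta-like cells. Ccna2 was at 81.5, 73.2, 121 and 121 CPM in beta-like and 49.9, 27.3, 40.5 and 41.3 CPM in delta-like cells. For all 3 genes every delta-like library lay below every beta-like one. Cenpa, the centromeric histone, was at 77.3, 66.5, 99.3 and 80.8 CPM in beta-like and 43.3, 18.6, 15.8 and 33.0 CPM in delta-like cells, which do not overlap either.

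Of the G1/S members, Rrm1 was even across beta-like libraries, at 71.5, 88.0, 71.9 and 75.5 CPM. It was higher without overlap in ductal-like cells, at 146, 183, 180 and 165 CPM. Mcm6 was at 37.6, 41.2, 55.3 and 52.1 CPM in beta-like and at 95.4, 147, 249 and 228 CPM in ductal-like cells. Rrm2 had no such step, with 93.3, 50.2, 41.9 and 82.0 CPM in beta-like and 63.6, 134, 49.0 and 56.6 CPM in ductal-like cells. Pcna split by pair in beta-like cells, at 90.0, 109, 32.2 and 25.4 CPM, with both A libraries above both B libraries. The same held in each of the other 5 classes, as in ductal-like cells at 191, 342, 71.5 and 64.7 CPM. Ccnb2 split the other way over all cells, at 36.5, 37.5, 99.0 and 107 CPM.

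The classes were compared with beta-like cells in a model that kept each library as a block, by edgeR's quasi-likelihood test with Benjamini-Hochberg adjustment over all 11237 genes tested. Of the members 43 passed the filter on low counts, all but Foxm1. In delta-like cells 20 of the 28 G2/M members tested and 10 of the 15 G1/S members were lower than in beta-like cells, and none was higher, where 3.97% of all genes tested were lower and 4.41% higher. The median difference was -1.29 (log2) over the G2/M and -0.93 over the G1/S members, against -0.05 over all genes tested. Mki67 was lower by -1.81 ± 0.28 (SE, log2, adjusted p = 9.34e-05) and Pbk, a mitotic kinase, by -1.57 ± 0.24 (adjusted p = 7.87e-05). Cdk1, at 35.1, 31.0, 36.0 and 32.2 CPM against 73.6, 51.2, 57.6 and 70.3 CPM, was lower by -1.0 ± 0.19 (adjusted p = 0.00123). Top2a was lower by -1.30 ± 0.25 (adjusted p = 0.00129). Rrm2 was lower by -1.41 ± 0.29 (adjusted p = 0.00224) and Pcna by -0.83 ± 0.20 (adjusted p = 0.00811). Ccne1 and Mcm4 followed at -1.06 ± 0.25 and -0.94 ± 0.23 (adjusted p = 0.00894 and 0.00923).

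These delta-like counts depend on single libraries, although the sign of the G2/M members did not turn in any of the 4 fits that left out a library. Without WT A 9 G2/M and 0 G1/S members passed, without mutant A 21 and 10, without WT B 8 and 8, and without mutant B 9 and 2. Without the insulin-rich cells 26 G2/M and 9 G1/S members passed and the G2/M median was -2.07. The summed G2/M level of delta-like cells was then 229, 149, 471 and 465 CPM, so that the change lay mostly in A. Their G1/S sum was then 196, 349, 460 and 239 CPM. Ins1 in these cells was at 47851, 85151, 668 and 7716 CPM with the insulin-rich cells and at 10389, 10707, 546 and 2240 CPM without them.

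Alpha-like cells differed from beta-like cells in 3 members only, with 0 higher and 3 lower, where 8.59% of all genes tested were higher and 11.7% lower. Pbk was at 27.4, 57.5, 38.4 and 34.9 CPM against 50.1, 81.7, 94.2 and 48.4 CPM, a difference of -0.90 ± 0.21 (SE, log2, adjusted p = 0.00335). The E cyclins Ccne1 and Ccne2 were lower by -0.96 ± 0.23 and -1.01 ± 0.25 (adjusted p = 0.00389 and 0.00496). Ccne1 varied between beta-like libraries, at 47.8, 17.9, 15.4 and 43.1 CPM, high in WT A and mutant B, and alpha-like cells followed the same order at 28.2, 6.68, 6.27 and 29.6 CPM. Each of the 3 lost the threshold in at least 1 fit without a WT library, Ccne1 without WT A (adjusted p = 0.0528), and Pbk and Ccne2 without WT B (adjusted p = 0.0526 and 0.0732).

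Mesenchymal-like cells had 6 higher and 0 lower G2/M members and 8 higher and 0 lower G1/S members, where 23.6% of all genes tested were higher, a share that the G2/M members (6 of 28) did not exceed. Mcm4 had the smallest p, at 133, 107, 183 and 214 CPM against 40.9, 29.9, 51.5 and 52.1 CPM in beta-like cells, a difference of 1.74 ± 0.20 (SE, log2, adjusted p = 5.65e-08). Mcm6 was higher by 1.33 ± 0.25 (adjusted p = 6.48e-05), Rrm1 by 0.83 ± 0.21 and Gins2 by 0.81 ± 0.22. Of the G2/M members Cdk1 was higher by 0.94 ± 0.17 (adjusted p = 7.72e-05), Prc1 by 1.00 ± 0.25, and Kif23 and Aurkb, which act in the division of the cytoplasm and chromosome segregation, by 1.16 ± 0.32 and 1.18 ± 0.34. The number of G2/M members moved with 1 library, with 14 higher without mutant A and 2 without mutant B, and 3 without WT B. For the G1/S members it was 4 without WT B and 3 without mutant B.

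Ductal-like cells had 10 higher and 1 lower of 15 G1/S members, where 20.6% of all genes tested were higher and 22.8% lower. Of 28 G2/M members tested 4 were higher and 1 lower, which did not exceed those shares. The median difference of the G2/M members was 0.05 (log2), with 15 positive and 13 negative. Mcm4 was at 159, 110, 188 and 204 CPM, higher by 1.51 ± 0.21 (SE, log2, adjusted p = 2.33e-06), and Mcm6 by 1.56 ± 0.26 (adjusted p = 2.26e-05). Gins2, at 70.0, 61.1, 118 and 138 CPM against 35.6, 14.0, 25.9 and 63.0 CPM, was higher by 1.20 ± 0.24, and Pcna by 0.86 ± 0.20. The lower G1/S member was Ccne1, at 12.7, 12.2, 8.17 and 12.1 CPM, by -1.88 ± 0.35 (adjusted p = 0.000101), so an E cyclin was low where helicase genes were high. The 4 higher G2/M members were Kif23, Kif20a, Bub1b and Cdc20, at 1.60 ± 0.34, 1.01 ± 0.31, 1.31 ± 0.43 and 1.25 ± 0.44. Pbk was the lower one, by -0.72 ± 0.26 (adjusted p = 0.0293). Without WT A, 1 G2/M member was higher, and 1 without mutant B.

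Endothelial-like cells had 6 higher and 2 lower of 15 G1/S members, with 24.5% of all genes tested higher and 27.1% lower. The lower G1/S members did not exceed that share. The higher ones were Mcm4, Mcm6, Mcm3, Rrm1, Mcm5 and Pcna, from 1.16 ± 0.26 (SE, log2) in Mcm6 to 0.58 ± 0.19 in Pcna. Ccne1 was lower by -1.87 ± 0.34 (adjusted p = 5.51e-05) and Ccne2 by -0.97 ± 0.33. Of 28 G2/M members tested 1 was higher and 4 lower, which did not exceed the shares over all genes tested. Their median difference was 0.02 (log2), with 14 positive and 14 negative. Cdk1 was higher by 0.54 ± 0.19 (adjusted p = 0.018). Pbk, Hmmr, Ccnb1 and Nek2 were lower by -1.08 ± 0.26, -1.52 ± 0.44, -1.07 ± 0.34 and -1.36 ± 0.48. Rrm1 lost the threshold in the fits without WT B, without mutant B and without the filter on low counts (adjusted p = 0.118, 0.0696 and 0.136). Hmmr lost it without WT B, and Mcm3 and Ccnb1 without mutant B. Without mutant A 5 G2/M members were higher, without WT A or WT B 0, and 2 were lower without mutant B. G1/S members higher numbered 3 without WT B and 2 without mutant B.

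**Figure D2:**
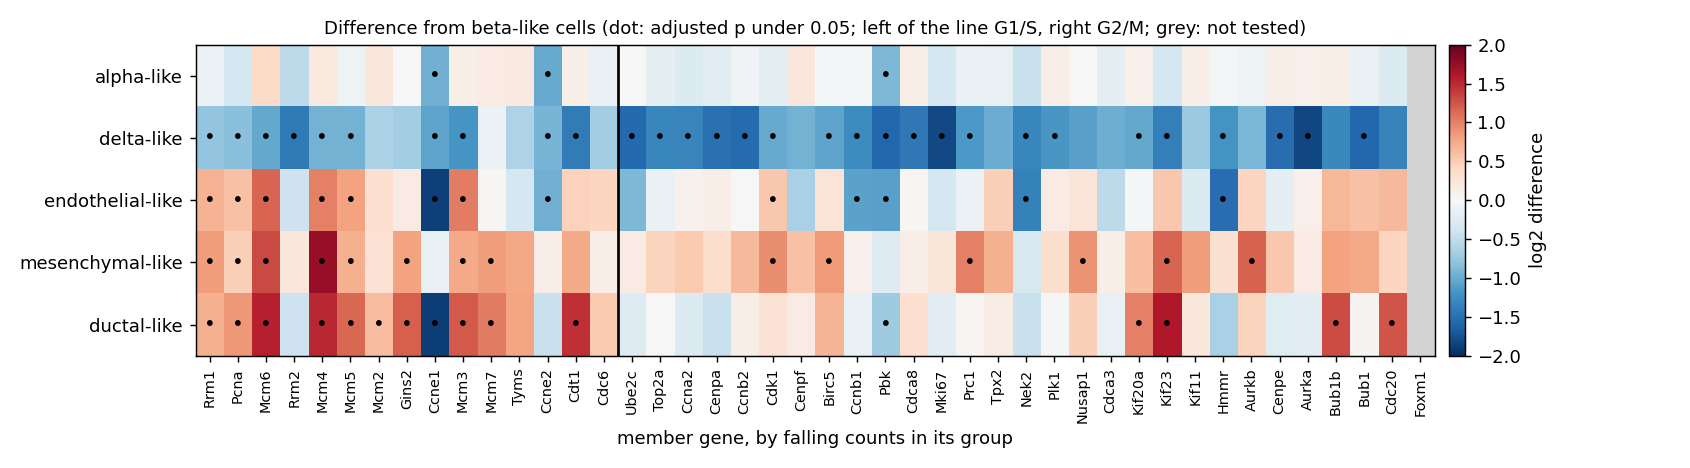
Log2 difference of each class from beta-like cells for the 15 G1/S members (left of the line) and 29 G2/M members (right), each group ordered by falling counts. Colour gives the fitted difference, a dot an adjusted p under 0.05, and grey a gene not tested. The delta-like row is blue wherever a gene was tested, the Mcm4 and Mcm6 columns are red in the 3 lower rows, and Ccne1 is blue in all rows, palest in the mesenchymal-like row.

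To give shares of cells beside the sums, each cell was thinned to 2000 counts at random, and cells with at least 2 counts over the 29 G2/M members were called G2/M-positive. Of 5602 cells deep enough, 1239 (22.1%) were positive, 1003 held 1 count and 3360 none. Of the positive cells 255 held 2 counts and 492 held 10 or more, up to 80. The 924 shallower cells were left out (108, 224, 260 and 332), and without thinning 38.7% of all 6526 cells were positive. In neuronal-like cells, a class that should not divide, 0 of 16 were positive and 5 held 1 count, which allows a share of up to 18.75% by 3 counts of the total and 20.6% by the upper bound of the exact (Clopper-Pearson) 95% interval. Their median depth was 16051 counts against 6375 over all cells that were thinned.

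Beta-like cells were G2/M-positive in 23.7%, 21.5%, 21.4% and 23.6% of cells, a narrow range, with exact (Clopper-Pearson) 95% intervals from 18.2% to 27.5% over the libraries. Delta-like cells were positive in 12.1%, 10.8%, 9.68% and 15%, below beta-like cells in 4 of 4 libraries, by 10.7 ± 1.48 percentage points on average (SD, n = 4; exact sign-flip permutation test, two-sided p = 0.125, adjusted p = 0.208 over 5 classes). That p is the smallest that 4 libraries allow. Without the insulin-rich cells the delta-like shares were 4.69%, 5.0%, 9.84% and 11.3%. Unthinned, 44.2%, 37.9%, 21.7% and 25.3% of delta-like cells held 2 or more counts, against 51.9%, 45.7%, 37.6% and 40.9% of beta-like cells, which shows how far depth moves such shares.

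Alpha-like cells were positive in 14.1%, 20%, 16.9% and 24.3%, lower than beta-like cells in 3 of 4 libraries (exact p = 0.25, adjusted p = 0.313, n = 4). Endothelial-like cells were positive in 26.4%, 22.2%, 36.8% and 27.1%, above beta-like cells in 4 of 4 (exact p = 0.125, adjusted p = 0.208). In ductal-like cells the shares were 32.1%, 41.7%, 22.1% and 32.0%, also above beta-like cells in 4 of 4 (exact p = 0.125, adjusted p = 0.208), in WT B by 0.63 percentage points. The highest came from 12 cells with an interval from 15.2% to 72.3% and from the library whose G2/M sum was lowest. Mesenchymal-like cells were positive in 18.3%, 18.2%, 19.4% and 29.6%, above beta-like cells in mutant B only (exact p = 0.75, adjusted p = 0.75), although their summed level was higher in 3 of 4 libraries. No order of mesenchymal-like, endothelial-like and ductal-like cells is read from these shares.

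**Figure D3:**
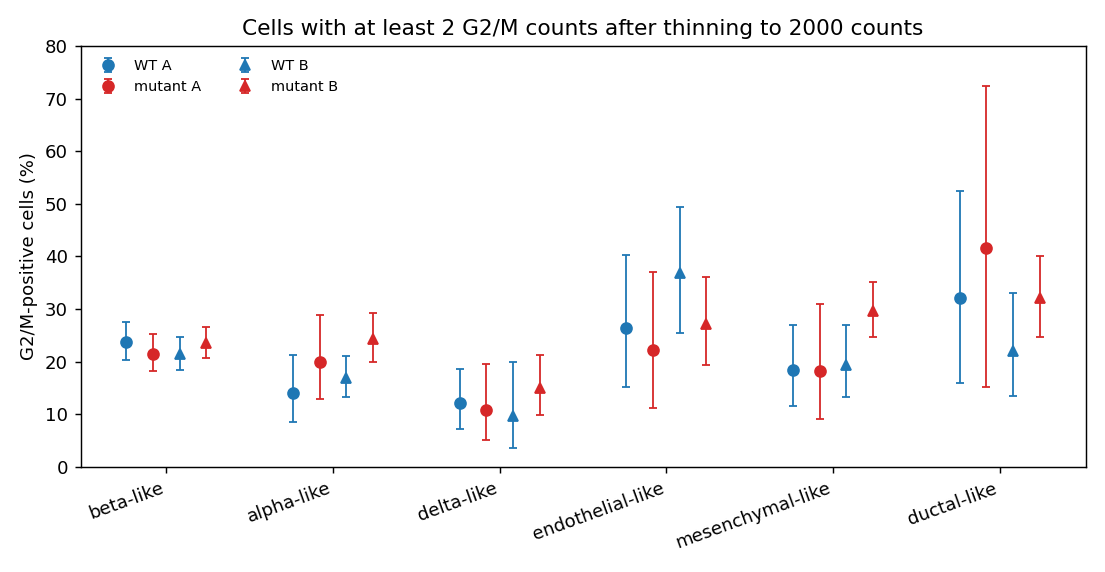
Percent of cells with at least 2 counts over the 29 G2/M members after thinning to 2000 counts, 1 point per library and class, with exact 95% binomial intervals that cover counting error only. Delta-like points lie lowest in every library, beta-like points lie between 21.4% and 23.7%, and the ductal-like interval of mutant A spans 15.2% to 72.3%.

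G1/S members were then read in the cells sorted by their G2/M counts, which the sorting did not use. In beta-like cells 56.4% of G2/M-positive cells held at least 2 G1/S counts, against 9.85% of cells without a G2/M count (G2/M-free). By library these were 68.7%, 54.2%, 41.9% and 60.5% against 9.91%, 12.6%, 9.11% and 8.56%, with no overlap. Alpha-like cells had 51.1% against 13.1%, endothelial-like cells 54.3% against 31.3% and mesenchymal-like cells 73.6% against 33.8%, also without overlap between the libraries. In delta-like cells, insulin-rich ones included, the shares were 38.6% and 5.54%. In mutant A, with 9 positive cells, the order was turned, at 11.1% against 14.0%. Ductal-like cells had 65.0% against 43.3%, the highest share of any class among G2/M-free cells, and in WT A both of their shares were 33.3%.

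**Figure D4:**
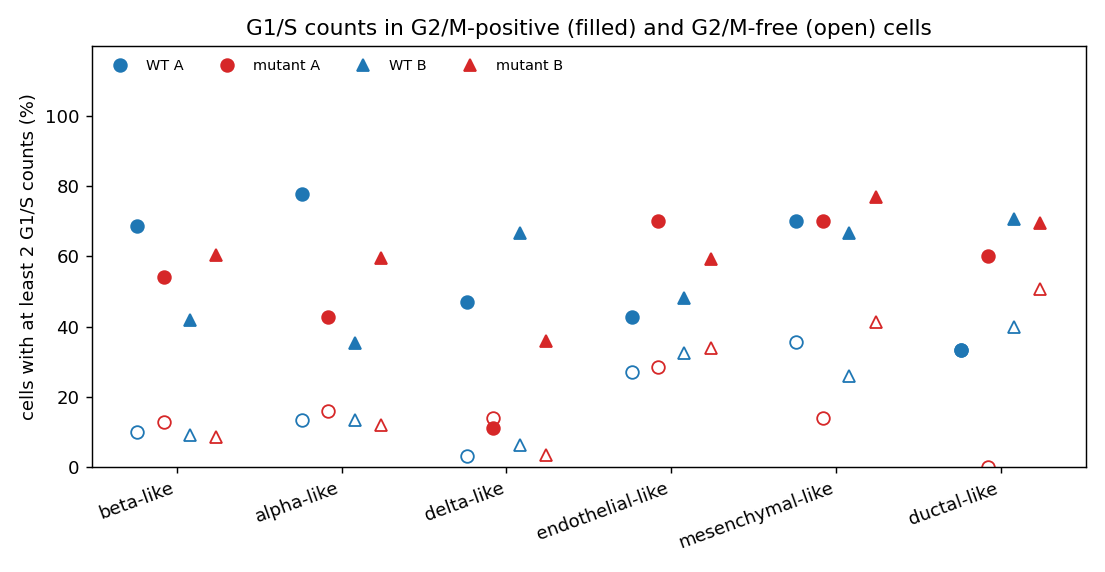
Percent of cells with at least 2 counts over the 15 G1/S members, among G2/M-positive cells (filled) and G2/M-free cells (open), per class and library, after thinning to 2000 counts. Filled and open points do not overlap in beta-like, alpha-like, endothelial-like and mesenchymal-like cells, and overlap in delta-like and ductal-like cells.

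The same contrast was fitted gene by gene on counts summed per library, with the library as a block. In beta-like cells all 15 G1/S members were higher in G2/M-positive cells (edgeR's quasi-likelihood test), where 9.19% of all 13844 genes tested were higher. Their median difference was 2.09 (log2), against -0.04 over all genes tested. Rrm2 led, at 346, 171, 148 and 281 CPM in positive against 11.7, 12.0, 5.24 and 11.2 CPM in G2/M-free cells, a difference of 4.51 ± 0.14 (SE). Rrm1 followed at 217, 217, 201 and 225 against 25.5, 42.8, 27.8 and 21.9 CPM, or 2.84 ± 0.13. Pcna differed by 1.89 ± 0.12, and Tyms by 2.88 ± 0.17. The smallest differences were those of the helicase gene Mcm4, 1.24 ± 0.17, and of Mcm2, 1.45 ± 0.17. Positive cells were slightly deeper, with medians of 14065, 10683.5, 6776.5 and 7336 counts against 13442, 10154.5, 6505 and 6355, and the part of depth in these differences was not tested.

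In alpha-like cells all 15 G1/S members were higher as well, where 5.21% of all genes tested were higher and 1.5% lower, with a median of 2.15. Rrm2 stood at 340, 237, 123 and 206 CPM against 2.78, 5.17, 3.68 and 8.77 CPM, a difference of 5.19 ± 0.29 (SE, log2). Rrm1, Mcm5 and Tyms followed at 2.30 ± 0.20, 2.34 ± 0.24 and 3.14 ± 0.34. In mesenchymal-like cells 7 of 13 G1/S members tested were higher and 0 lower (of all genes tested 3.91% were higher and 0.846% lower), namely Rrm2, Rrm1, Tyms, Mcm5, Pcna, Gins2 and Ccne2, with Rrm2 at 3.53 ± 0.34. The helicase genes Mcm2, Mcm3, Mcm4, Mcm6 and Mcm7 did not pass there, and Mcm4 was at 158, 63.4, 256 and 278 CPM in positive against 133, 79.3, 177 and 212 CPM in free cells. The number was 4 to 8 when a library was left out, and Mcm5 lost the threshold without WT B or mutant B. In endothelial-like cells 2 of 9 tested were higher and 0 lower (of all genes tested 1.79% and 0.326%), Rrm2 by 4.80 ± 0.60 and Rrm1 by 1.91 ± 0.29, and the other 7 had positive differences from 0.48 to 1.18. Delta-like and ductal-like cells had fewer than 10 positive cells in at least 1 library and were not fitted. Depth differed more in some of these sums, as in mesenchymal-like cells of mutant A, with medians of 7922.5 counts (positive) against 4953.5 (free). In mutant A positive cells were shallower in alpha-like cells (6375 against 7029) and endothelial-like cells (5501 against 7087.5). The part of depth in these differences was not tested, nor whether the contrast differs between classes.

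**Figure D5:**
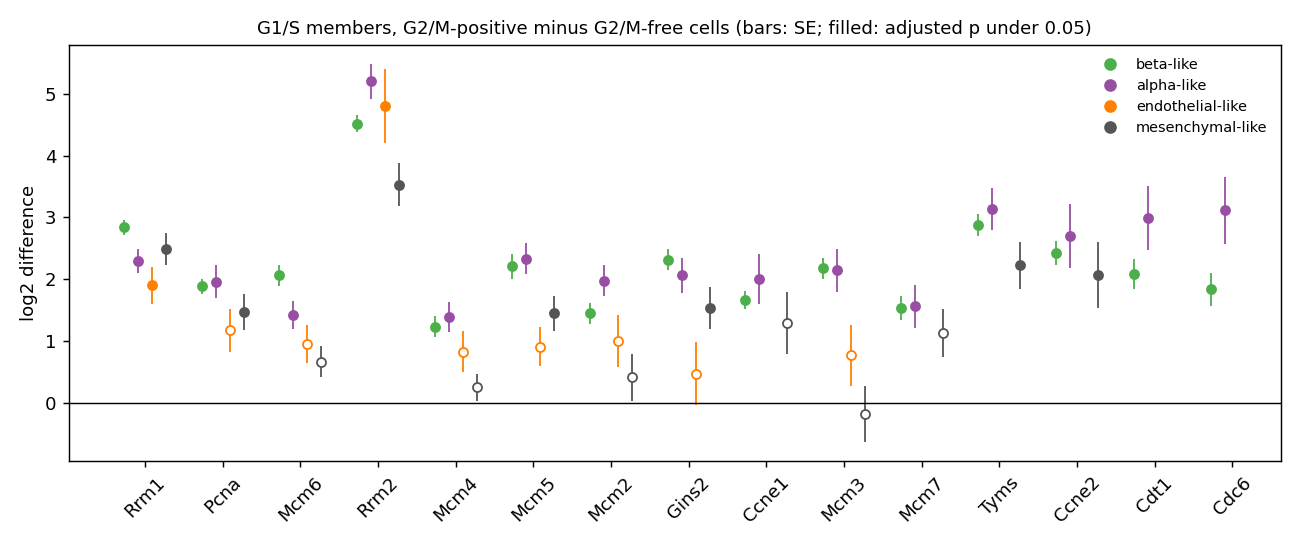
Log2 difference between G2/M-positive and G2/M-free cells for each G1/S member, by class, with bars of 1 SE; filled points have an adjusted p under 0.05, and members not tested in a class have no point. Rrm2 has the largest difference in all 4 classes, and the Mcm genes of mesenchymal-like cells other than Mcm5 are open.

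Other genes of the cycle moved with the members in the beta-like contrast, where 9.19% of all genes tested were higher. The cells were sorted by G2/M members, so a rise of mitotic genes transcribed with them follows from the sorting. Of 52 other mitotic genes tested 52 were higher, led by Mad2l1, a spindle checkpoint protein, at 188, 146, 254 and 242 CPM in positive against 14.9, 9.97, 12.8 and 17.5 CPM in free cells (3.84 ± 0.12, SE, log2). Ckap2l, Racgap1 and Ect2, which serve the spindle and the cleavage of the cell, were higher by 5.92 ± 0.22, 3.48 ± 0.13 and 4.51 ± 0.17. Of 39 other S phase genes tested 36 were higher, led by Dbf4, the activator of a replication kinase, by 2.90 ± 0.14, and by Lig1, Dut and Clspn by 2.35 ± 0.14, 1.62 ± 0.10 and 3.13 ± 0.20. Gins1, Gins3 and Orc1 did not pass.

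Of 24 regulators of the cycle 17 were higher and 0 lower, where 9.19% of all genes tested were higher and 7.6% lower. Cdkn2c, an inhibitor of Cdk4 and Cdk6, was at 162, 179, 144 and 151 CPM in positive against 10.6, 6.75, 4.91 and 14.7 CPM in free cells, a difference of 4.05 ± 0.16 (SE, log2). E2f8 and E2f7, repressors of the E2F family, were higher by 4.08 ± 0.26 and 1.88 ± 0.15, and Mybl2, which encodes B-Myb, by 3.42 ± 0.24. Ccnd2, a D cyclin, was abundant in both states, at 1105, 1765, 1351 and 1409 against 897, 1784, 1692 and 1259 CPM, and did not pass (-0.01 ± 0.07). Among 15 genes of beta cell identity tested, 7 were lower and 0 higher, where 7.6% of all genes tested were lower. G6pc2, of glucose cycling, was at 752, 704, 432 and 397 CPM in positive against 1466, 973, 646 and 714 CPM in free cells, a difference of -0.76 ± 0.07. Slc2a2, the glucose transporter, differed by -0.63 ± 0.06, the transcription factor Nkx6-1 by -0.41 ± 0.06 and the maturity marker Ucn3 by -0.64 ± 0.13. Ucn3 was lower in 3 of 4 libraries and did not pass with DESeq2 (-0.76, adjusted p = 0.145). Ins1 and Ins2 did not pass.

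The study set mutant against WT, and no member passed the threshold in any of the 6 classes or over all cells, by edgeR or by DESeq2. At an unadjusted p under 0.05 there were 5 by edgeR and 2 by DESeq2, all in endothelial-like cells. The share of all genes tested at that unadjusted p is not given, so these counts cannot be set against it. No gene of any kind passed either (0% of 16113 tested in beta-like cells). In data simulated on the beta-like sums this design recovered 0 of 92 genes changed 4-fold, and on the endothelial-like sums 13 of 91, so changes of this size could go uncalled. In beta-like cells 1 of 29 G2/M members, Kif23, was lower in both mutant libraries than in both WT libraries, and 0 were higher, where 7.4% and 3.89% of genes tested were. The median difference of the G2/M members there was -0.08 (log2) and of the G1/S members 0.03, and 0 of 44 members had an unadjusted p under 0.05.

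Endothelial-like cells had the widest separation by label. Of 29 G2/M members 22 were lower in both mutant libraries than in both WT libraries, and of the 20 that passed the filter on low counts 17 were, where 13.9% of all genes tested were. All 20 had negative differences, with a median of -1.07 (log2) against 0.02 over all genes tested. Ube2c was at 136, 14.4, 129 and 39.6 CPM, from 41, 5, 64 and 22 counts, a difference of -2.16 ± 0.53 (SE, edgeR's adjusted p = 1). Ccnb1 was at 49.9, 8.65, 54.6 and 16.2 CPM from 15, 3, 27 and 9 counts, and Ccna2 at 153, 72.1, 178 and 64.8 CPM. G1/S members were not apart. Of the 9 that passed the filter, 1 lay above (Mcm3, where 7.91% of genes tested did) and 0 below without overlap. Cdt1, which did not pass the filter, lay below. Without mutant B, Ccnb2 and Ube2c passed (-3.46 and -3.10, adjusted p = 0.00586 for both). In that fit mutant A is the lone mutant library and is assumed to vary like the WT libraries. Ccnb2 over all 4 libraries was at 83.2, 8.65, 121 and 88.2 CPM.

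Insulin transcripts in the same endothelial-like sums were uneven. Ins1 was at 928, 35341, 564 and 214 CPM, high in mutant A alone. Without 7 insulin-rich cells of mutant A it fell to 4317 CPM there, and the G2/M sum was 1651, 802, 1873 and 1010 CPM, with both mutant libraries still below both WT libraries. The share of G2/M-positive endothelial-like cells differed by -4.19 and -9.65 percentage points within A and B (exact permutation test of 2 against 2 libraries, p = 0.667, where the smallest possible is 0.333). Without the insulin-rich cells the shares were 26.4%, 25.6%, 36.8% and 27.1%, so that within A the mutant library lay close to the WT library and the difference lay mostly in B. Of the beta cell identity genes 6 were tested in these sums, and all 6 had positive differences, 3 of them with an unadjusted p under 0.05.

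In alpha-like cells 13 of the 28 G2/M members tested were higher in both mutant libraries than in both WT libraries and 0 lower, where 6.53% of genes tested were higher and 6.93% lower. All 29 G2/M members were higher within A and 19 within B. The differences had a median of 0.49 (log2), and 0 had an unadjusted p under 0.05. Cdca8 was at 38.5, 66.8, 54.7 and 91.4 CPM and Cdca3 at 15.4, 33.4, 20.5 and 37.6 CPM. G1/S members above without overlap numbered 5 of 15, among them Cdc6 at 6.85, 18.7, 4.60 and 11.8 CPM. The shares of G2/M-positive cells were higher by 5.94 and 7.46 percentage points within A and B (exact permutation p = 0.333, the smallest possible). Insulin transcripts were lower in the mutant library of either pair in the same alpha-like sums, with 6346, 1998, 662 and 246 CPM of Ins1. For Ins2 the levels were 5340 CPM (WT) and 1348 CPM (mutant) in A, then 745 and 247 CPM in B (-1.89 ± 0.84, SE, edgeR's unadjusted p = 0.0394, adjusted p = 1). Of 15 beta cell identity genes tested 12 had negative differences, with a median of -0.24. Without the insulin-rich cells the G2/M sum of alpha-like cells was 867, 1498, 1227 and 1519 CPM, with both mutant libraries above both WT libraries, and the shares of G2/M-positive cells were 14.9%, 20%, 16.9% and 24.3%. The label contrast of endothelial-like cells was set against that of alpha-like cells of the same libraries in 1 model, a test chosen after the values were seen. No member passed, nor did any of the 10074 genes tested. The 2 classes were set together because their G2/M members had lain in opposite directions by label, so the sign of this difference was fixed by that choice. Of 28 G2/M members tested 28 had a negative difference, with Ube2c at -2.92 ± 0.63 (SE, edgeR's adjusted p = 1), and 15 had an unadjusted p under 0.05. For counts at that unadjusted p in this test no share over all genes tested is given. In the same test all 15 beta cell identity genes fitted (of 17 listed) had positive differences, with a median of 2.24, and 5 had an unadjusted p under 0.05. Among them Ins1 was at 3.55, Ins2 at 3.42 and Nkx6-1, a beta cell transcription factor, at 4.25. The part of insulin transcripts in the difference of the G2/M members was not tested.

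The G2/M members of the remaining classes showed no common direction. In mesenchymal-like cells 26 of 29 G2/M members were lower within A and 19 higher within B, and in ductal-like cells 26 were lower within A and 17 higher within B. Within A the mesenchymal-like comparison sets 67 mutant cells against 119, and the ductal-like one 14 against 28. Ins1 in mesenchymal-like cells was at 7730, 56219, 1169 and 692 CPM, high in mutant A, and all 14 beta cell identity genes tested had positive differences, with a median of 1.70. Without the insulin-rich cells, which left 54 cells in mutant A, Ins1 there was at 6268 CPM. The G2/M sum of mesenchymal-like cells was 1858, 936, 2308 and 2536 CPM with them and 1730, 983, 2337 and 2530 CPM without, with mutant A lowest both times. In ductal-like cells Ins1 was at 2577, 843, 604 and 369 CPM, and 7 of 9 beta cell identity genes tested had negative differences. The mitotic kinase gene Nek2 was at 48.6, 0, 49.6 and 48.2 CPM in mesenchymal-like cells, with 0 counts in mutant A, and passed the threshold when mutant B was left out (edgeR's adjusted p = 0.0236), a fit in which mutant A alone stands for the mutant label and is assumed to vary like the WT libraries. Delta-like cells had 10 of 29 G2/M members higher within A and 19 within B. Of the 22 that passed the filter on low counts, 4 lay above and 2 below without overlap, where 6.48% and 7.53% of genes tested did. In mesenchymal-like cells 1 (Mki67) of 27 tested lay above and 5 below, where 7.66% and 12.2% did. In ductal-like cells 1 of 21 tested lay above and 4 below, where 10.5% and 12.3% did. Of the G1/S members tested, 4 of 14 lay above (Rrm1, Rrm2, Ccne2 and Cdt1) and 2 below in mesenchymal-like cells. In ductal-like cells 1 of 12 lay above and 2 below, and in delta-like cells 0 of 13 either way, against the same shares. Of 15 G1/S members in delta-like cells 12 were higher within A and 3 within B. Over all cells the G2/M sum was 1074, 1070, 1478 and 1443 CPM and the G1/S sum 581, 585, 598 and 687 CPM, so the G2/M sum differed more between pairs than between labels. Without overlap 3 G2/M members, Bub1, Kif20a and Kif23, lay below (5.48% of genes tested) and 1 G1/S member, Rrm1, above (4.23%).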

How the data were processed

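The authors deposited whole-number counts per gene and barcode for 4 libraries, not normalized. The submitters' processing notes name the builds GRCm 38 and GRCh 38. The sources used here name no aligner, annotation, counting program, collapsing of molecular barcodes, use of strand or rule for keeping barcodes. The libraries held 12835199, 9282495, 10350699 and 12236110 counts. Intervals and limits cover counting error only.

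Barcodes with at least 500 counts, 250 genes and at most 25% mitochondrial counts were kept, and Scrublet removed 13, 3, 7 and 17 doublets per library. Clustering used 2000 variable genes less the cell cycle genes, 30 components and 15 neighbours in scanpy 1.11.5, at resolution 1 and seed 1, which gave 21 clusters. A cluster took the name of the class with the highest marker score over at least 3 detected markers, or none where markers of another class led. Clusters left unnamed held 317 cells, in a Ppy and Pyy cluster of 199 and a myeloid cluster of 118. Cells of other classes were called insulin-rich when their share of insulin transcripts reached 0.5 times the median of the beta-like cells of the same library.

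Counts were summed per library and class (at least 10 cells in every library) and tested with edgeR 4.0.16, by quasi-likelihood with TMM factors and edgeR's filter on low counts, at a Benjamini-Hochberg adjusted p under 0.05. SE is the absolute log2 difference over the square root of F. DESeq2 1.42.0 was an alternative, as were other scalings, filters, thinning depths and each library left out. Single values per library were tested by exact permutation. The models were tested on simulated data. In the delta-like contrast 59 of 98 genes changed 2-fold were recovered, and in the beta-like contrast of G2/M-positive cells 76 of 95. Unchanged genes called there numbered 12 and 8. In the simulated contrasts of the labels 1 unchanged gene was called on the beta-like and 3 on the endothelial-like sums.

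The members and gene lists were chosen with earlier results of these data known. Values in every library were printed for Mki67, Top2a, Pcna, the 4 members of each group with the most counts, and up to 4 members, or genes of another list, per direction of smallest p. Genes set beside these for a contrast, the fits without insulin-rich cells by label, and the comparison of endothelial-like with alpha-like cells were chosen after the data were seen. Promoter windows come from RefSeq (GRCm38.p6) and gene spans from GENCODE M21.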

Additional observations from a re-analysis of the deposited data

How the results depend on the processing

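Of 484 values of named genes under the alternatives, 469 kept their direction and side of the threshold, 15 lost the threshold and 0 reversed. Members called between labels stayed at 0 except without mutant B (ranges over left-out libraries 0 to 2 in endothelial-like and 0 to 1 in mesenchymal-like cells). Without the filter on low counts the endothelial-like calls above beta-like cells were 0 G2/M and 3 G1/S members, the mesenchymal-like 5 G1/S and the ductal-like 2 G2/M, and with clusters made with cell cycle genes 0 ductal-like G2/M members were lower. Leaving out each library gave ranges of called members against beta-like cells as follows. In alpha-like cells 1 to 2 G1/S and 0 to 1 G2/M members were lower. In delta-like cells 0 to 10 G1/S and 8 to 21 G2/M members were lower. In endothelial-like cells 2 to 7 G1/S and 0 to 5 G2/M members were higher, and 1 to 2 and 2 to 5 lower. In mesenchymal-like cells 3 to 9 G1/S and 2 to 14 G2/M members were higher. In ductal-like cells 7 to 11 G1/S and 1 to 5 G2/M members were higher, and 0 to 1 G2/M members lower. In the contrast by G2/M state 4 to 8 G1/S members were higher in mesenchymal-like and 2 to 3 in endothelial-like cells.

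Differences in the share of G2/M-positive cells between labels (mutant minus WT, in percentage points) changed sign with the cell rule. In beta-like cells -0.0488 became 2.69 with at least 1 count, 0.847 with at least 3, 1.13 after thinning to 4000 counts and 0.218 with clusters made with cell cycle genes (range over left-out libraries -1.19 to 1.09). In delta-like cells 2.04 became -2.34 with at least 3 counts and -3.01 after thinning to 1000 (range -0.0237 to 4.10). In ductal-like cells 9.74 became -0.146 with at least 1 count, 1.70 with at least 3, -1.48 after thinning to 1000 and -4.28 after thinning to 4000 (range 4.70 to 14.8). Thinning to 4000 counts gave 10.5 in alpha-like and 18.7 in mesenchymal-like cells, whose ranges were 4.53 to 8.87 and -0.705 to 10.8, and the endothelial-like range was -12.1 to -1.74. The cause was not tested. With the replicate block of the title number, 0 members passed in 7 comparisons of the labels, and deviations of libraries with the same number correlated with r from 0.050 to 0.401 over the classes. The labels do not say what the number stands for, and 2 pairs do not settle whether it pairs the libraries. Of 5602 thinned cells 3360 held no G2/M count, which limits how finely shares can be read.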
